A study of Mus musculus with 6 samples.

Results

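The adrenergic receptors of fat and the cyclic AMP pathway below them were followed through 9 genes of a table of 19831 genes. The genes were chosen by symbol: the receptors *Adrb1*, *Adrb3*, *Adra1a* and *Adra2a*, the stimulatory G protein gene *Gnas*, the adenylyl cyclase *Adcy3*, the phosphodiesterase *Pde3b*, and the protein kinase A subunits *Prkaca* and *Prkar2b*. All 9 were listed, and all 9 passed the minimum of 10 normalized read counts used for counting genes. RNA was sequenced from mouse inguinal adipose tissue (iAT), the fat depot under the skin of the groin, at postnatal day 6. The 3 samples of one group were wild-type (WT), and the 3 of the other carried an ablation of *Npffr1*, which encodes neuropeptide FF receptor 1 (Npffr1-KO). The labels give no sex, and they do not say how the gene was ablated, in which cells, or whether tissue of several animals was pooled. Any p-value below therefore measures the spread between these samples, which may be technical.

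Noradrenaline from sympathetic nerves acts on fat cells through these receptors. Beta receptors couple to the stimulatory G protein, whose alpha subunit comes from *Gnas*, and switch on adenylyl cyclases, which make cyclic AMP. Alpha-2 receptors couple to inhibitory G proteins and hold the cyclases back, while alpha-1 receptors act mainly through calcium. Cyclic AMP releases the catalytic subunits of protein kinase A from the regulatory ones. The kinase then drives lipolysis and, in thermogenic fat cells, heat production. Phosphodiesterases such as Pde3b, which insulin activates, break cyclic AMP down.

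The deposited table lists 1 value per genotype, in read counts normalized for library size. The ratio of the 2 values is drawn towards 1 where reads are few or libraries differ widely, so it understates those changes. For 7 of the 9 genes these are the only values, with no replicate error and no test. For *Adrb1* and *Adra1a*, both low, the whole reads of each of the 6 libraries were recovered from the values. The libraries are known by genotype and size factor, not by sample number, and are called a, b and c in each genotype. A gene was counted as higher or lower where the log2 ratio of Npffr1-KO over WT was at least 0.5 in size, a ratio of 1.41, which is a size of difference and not a test.

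Facts about the libraries come first, because they touch the values below. *Npffr1* itself had 5, 0 and 1 reads in WT libraries a, b and c, and 0 in each of the 3 Npffr1-KO libraries, too few to check the labels. The size factors, which follow depth, ran from 0.916 to 1.04. Fat cell markers were abundant, with a summed value of 228998 in WT and 253256 in Npffr1-KO. Of these 6 genes, 5 had ratios above 0 and 1 below. *Fabp4*, a fatty acid binding protein, was at 156285 in WT and 173188 in Npffr1-KO. The thermogenic fat cell markers were higher in Npffr1-KO for 5 of 5 genes, with a summed value of 1543 in WT and 5180 in Npffr1-KO. Skeletal muscle markers summed to 353 in WT and 698 in Npffr1-KO, with ratios above 0 for 5 of 5 genes, of which *Myh4* had 1 read in all. In the libraries this RNA was concentrated in 1: *Ckm*, the creatine kinase of muscle, had 2, 3 and 2 reads in WT and 6, 1 and 215 reads in Npffr1-KO libraries a, b and c. The means of its libraries were 2.28 in WT and 71.6 in Npffr1-KO, a log2 ratio of 4.97. Its deposited values gave 0.75, so for *Ckm* the values behind the sums understate the difference. Of the 2849 genes with reads found and a mean of at least 10, 7 had over 75% of their normalized count in 1 library, and 5 of these 7 were highest in Npffr1-KO library c. Summed values of other cell types were 48763 and 38530 for endothelial markers in WT and Npffr1-KO, 303413 and 237234 for fibroblasts and progenitors, 36369 and 31441 for smooth muscle and pericytes, 8860 and 8886 for macrophages, 7724 and 10187 for lymphocytes, and 76820 and 85778 for erythroid cells. Keratinocyte markers summed to 87.3 and 81.0 and epithelial markers to 56.2 and 61.3. In bulk tissue, fewer cells of a type and less RNA per cell cannot be told apart. The part of these differences in the values below was not tested, except where a value without library c is given.

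The 250 bases before the start of 3 of the genes are shown because these genes carry the short core of the cyclic AMP response element, TGACG, which is bound by CREB, a transcription factor that protein kinase A activates. They belong to *Adrb1* and *Prkaca*, which had the highest ratios of the 9, and to *Adra2a*, whose values differed little. The sequences are from RefSeq, build GRCm38.p6, all on the plus strand, and capitals mark TGACG or, where it lies on the other strand, CGTCA. The first is chr19:56721867-56722116, the second chr8:83972728-83972977 and the third chr19:54045009-54045258.
Adrb1: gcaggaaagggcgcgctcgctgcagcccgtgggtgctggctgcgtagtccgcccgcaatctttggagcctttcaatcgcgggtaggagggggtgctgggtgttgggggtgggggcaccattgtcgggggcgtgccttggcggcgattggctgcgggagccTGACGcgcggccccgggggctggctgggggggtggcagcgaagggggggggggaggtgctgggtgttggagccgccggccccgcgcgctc
Prkaca: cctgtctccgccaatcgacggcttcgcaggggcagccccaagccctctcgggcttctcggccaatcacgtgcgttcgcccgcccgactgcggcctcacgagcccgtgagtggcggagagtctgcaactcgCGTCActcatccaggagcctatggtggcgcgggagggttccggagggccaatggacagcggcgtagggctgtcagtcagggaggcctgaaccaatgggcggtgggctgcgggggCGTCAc
Adra2a: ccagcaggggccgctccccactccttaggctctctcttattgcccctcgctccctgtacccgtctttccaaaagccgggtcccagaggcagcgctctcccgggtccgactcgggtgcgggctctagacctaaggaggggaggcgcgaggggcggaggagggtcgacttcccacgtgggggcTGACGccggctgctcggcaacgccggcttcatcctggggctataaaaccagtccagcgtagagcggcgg
The match lay 86 to 90 bases before the start in *Adrb1* and 65 to 69 bases before it in *Adra2a*. *Prkaca* had 2 matches on the other strand, 2 to 6 and 116 to 120 bases before the start shown, and none before its second start in the table. The RefSeq promoter table held 12 starts of 6 of the 9 genes, and *Adrb3*, *Adra1a* and *Pde3b* are not in it. TGACG was found on either strand in 6 of the 12 promoters, which belong to 4 genes, *Gnas* being the other one, and in 17.8% of all 32851 promoters. Some *Gnas* promoters overlap and hold the same match, which is then counted more than once. The full element, TGACGTCA, which contains this core on both strands, was in 0 of the 12 and in 1.55% of all promoters. These matches are letters in a window, not binding sites.

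Levels of different genes were compared per kilobase of the gene length that the table lists. In WT, *Gnas* was far above the rest with 37410 normalized counts per kilobase, and 99.9% of all listed genes had a lower normalized count. *Prkar2b* followed with 2539 per kilobase and *Prkaca* with 2017. *Adrb3* stood at 893 and *Pde3b* at 654 per kilobase. *Adra2a* reached 191 and *Adcy3* 136 per kilobase. *Adra1a* and *Adrb1* were lowest, at 17.8 and 17.6 per kilobase. The order in Npffr1-KO was the same for 7 of the 9 genes. *Adrb1*, at 35.1 per kilobase, stood above *Adra1a*, at 21.5, and these were the only places that changed. The libraries of the last pair overlapped: per kilobase, *Adrb1* ran from 14.3 to 19.0 in WT and from 23.5 to 43.4 in Npffr1-KO, and *Adra1a* from 14.4 to 21.7 and from 13.3 to 29.0. For the other neighbours the spread is unknown.

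**Figure D1:**
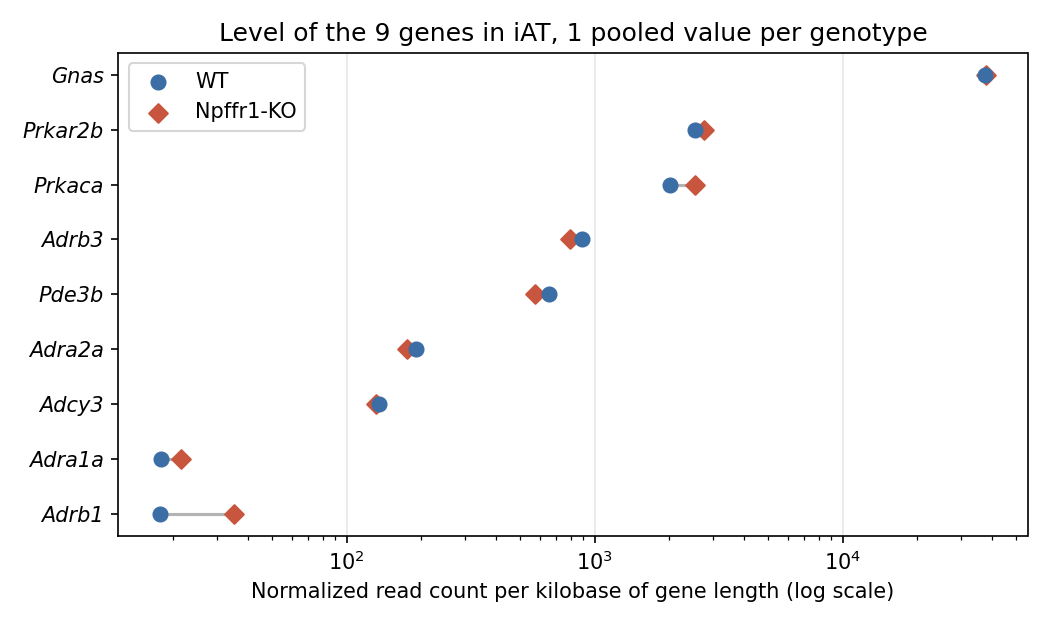
Each point is the deposited value of a genotype, in normalized read counts per kilobase of gene length on a log axis, with circles for WT and diamonds for Npffr1-KO. The 9 genes span from 17.6 per kilobase (*Adrb1*) to 37410 per kilobase (*Gnas*) in WT, and only *Adrb1* has points that stand far apart, at 17.6 and 35.1.

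*Adrb1* encodes the beta-1 receptor, found in heart and, in fat, mainly in preadipocytes and in thermogenic fat. Its deposited values were 43.9 normalized counts in WT and 87.4 in Npffr1-KO, a log2 ratio of 0.99. It was the only one of the 9 genes past 0.5 in either direction. Over all 15309 genes with a mean of at least 10, 4.37% were past 0.5 in the higher direction and 4.78% in the lower one. Only 74 of the 15309 genes had a higher log2 ratio than *Adrb1*.

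The reads of single libraries show the same direction. *Adrb1* had 36, 42 and 49 reads in WT libraries a, b and c, or 35.7, 41.1 and 47.3 normalized counts. In Npffr1-KO it had 99, 58 and 107 reads, or 108, 58.5 and 103 normalized counts. Every Npffr1-KO library lay above every WT library, and library b of Npffr1-KO was well below the other two. The means were 41.4 ± 5.80 (SD, n = 3) in WT and 89.9 ± 27.3 (SD, n = 3) in Npffr1-KO, a log2 ratio of 1.12. Of the 2849 genes with reads found and a mean of at least 10, 6.14% were likewise higher without overlap. An exact permutation test of 3 libraries against 3 cannot go below p = 0.10. With limma over the 2849 genes, the difference was 1.06 on the log2 scale (SE 0.29), with an unadjusted p of 0.0023 and a Benjamini-Hochberg adjusted p of 0.23. No gene of the 2849 passed an adjusted p of 0.05 (0.0%), while 324 had an unadjusted p under 0.05. With 3 libraries of each genotype, a high adjusted p-value does not show a lack of change. Without Npffr1-KO library c, the one with muscle RNA, the log2 ratio of the means was 1.01, and leaving out each library in turn gave 0.97 to 1.35.

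*Adrb3* encodes the beta-3 receptor, the main beta receptor of rodent fat cells. It was the most abundant adrenergic receptor in both genotypes. Its values were 2496 normalized counts in WT and 2233 in Npffr1-KO, a log2 ratio of -0.16, and 25.4% of the 15309 genes had a lower ratio. *Adrb3* was thus at 893 per kilobase in WT and 799 in Npffr1-KO, which was 50.7 and 22.8 times the level of *Adrb1*. An annotated gene of unknown role, Gm45470, overlaps it on the other strand, and whether the counting used strand is not given.

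*Adra1a* encodes an alpha-1 receptor. Its deposited values were 67.4 normalized counts in WT and 81.6 in Npffr1-KO, a log2 ratio of 0.28. The libraries overlapped: reads were 55, 64 and 85 in WT and 80, 50 and 114 in Npffr1-KO libraries a, b and c. In normalized counts these were 54.6, 62.7 and 82.1 in WT, and 87.3, 50.5 and 110 in Npffr1-KO. Both the lowest and the highest of the 6 values were Npffr1-KO libraries. The means were 66.4 ± 14.1 (SD, n = 3) and 82.5 ± 30.0 (SD, n = 3), and the limma difference was 0.26 on the log2 scale (SE 0.29), with an adjusted p of 0.79. The difference was within the spread between libraries, and Npffr1-KO library c decided most of it: without that library the log2 ratio of the means was 0.052, against 0.31 with it.

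*Adra2a*, the main inhibitory alpha-2 receptor of fat, had 729 normalized counts in WT and 670 in Npffr1-KO, a log2 ratio of -0.12. Per kilobase it was 10.8 times the level of *Adrb1* in WT and 5.0 times in Npffr1-KO, while *Adrb3* was 4.68 and 4.55 times the level of *Adra2a*. Over all 9 adrenergic receptor genes, the per-kilobase sum was 1306 in WT and 1214 in Npffr1-KO. *Adrb3* took 68.4% and 65.8% of it, *Adra2a* 14.6% and 14.5%, *Adra1a* 1.36% and 1.77%, and *Adrb1* 1.35% and 2.89%.

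The 4 other alpha receptors had ratios below 0. *Adra1d*, the highest of the 4 in mean count, had 242 normalized counts in WT and 173 in Npffr1-KO, a log2 ratio of -0.48. *Adra2b* had 52, 33 and 45 reads in WT and 18, 30 and 16 in Npffr1-KO. Each of its Npffr1-KO libraries lay below each WT library, which held in the lower direction for 10.2% of the 2849 genes. The limma difference of *Adra2b* was -0.96 (SE 0.35) on the log2 scale, with an unadjusted p of 0.014 and an adjusted p of 0.31. *Adra2c* had 22, 20 and 18 reads in WT and 17, 7 and 1 in Npffr1-KO. Its Npffr1-KO libraries spread widely, and library a overlapped with WT once normalized. The limma difference was -1.60 (SE 0.71), with an adjusted p of 0.41. It was -2.37 without Npffr1-KO library a and -0.71 without Npffr1-KO library c. *Adra1b* had 50, 53 and 43 reads in WT and 19, 39 and 68 in Npffr1-KO, which enclosed the WT range, with an adjusted p of 0.79. Its log2 ratio of the means was -0.19, but 0.14 without Npffr1-KO library a and -0.67 without Npffr1-KO library c.

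**Figure D2:**
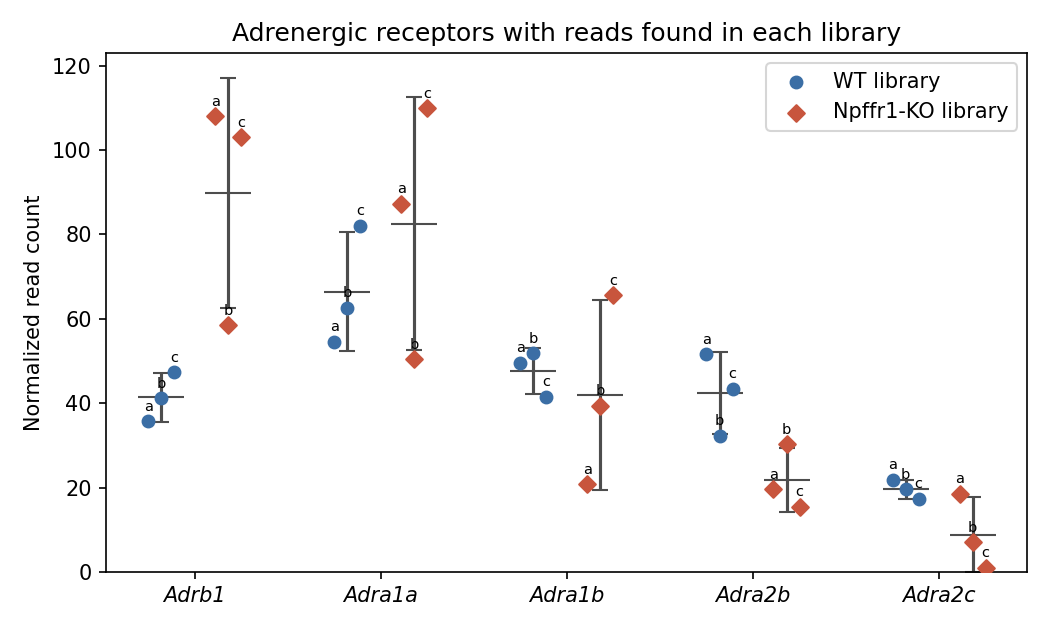
Points are the normalized read counts of single libraries, a to c in each genotype, for the 5 adrenergic receptors low enough for reads to be recovered, and bars are the mean and SD of 3 libraries. The libraries of *Adrb1* (higher in Npffr1-KO) and *Adra2b* (lower) do not overlap between genotypes, whereas those of *Adra1a*, *Adra1b* and *Adra2c* do.

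*Gnas* encodes the stimulatory G protein alpha subunit along with imprinted products from other starts. It had 58958 normalized counts in WT and 59765 in Npffr1-KO, a log2 ratio of 0.02. Its level per kilobase was 3.41 times that of *Gnai2*, the most abundant of the other G protein genes measured, in WT, and 3.38 times in Npffr1-KO. In the GENCODE annotation, release M21, 5 other genes overlap *Gnas*, including the antisense RNA Nespas, so the count may hold reads of more than 1 product. The sign of the *Gnas* ratio depends on gene length: set against genes of like length, it was -0.10.

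*Adcy3*, an adenylyl cyclase of the primary cilium and of fat, had 602 normalized counts in WT and 581 in Npffr1-KO, a log2 ratio of -0.05. It was not the main cyclase gene at the RNA level. *Adcy6*, inhibited by calcium, stood at 7.54 times its level per kilobase in WT and 6.05 times in Npffr1-KO. *Adcy3* made up 5.92% of the summed per-kilobase level of 10 cyclase genes in WT and 7.05% in Npffr1-KO, where the sum itself was 2292 and 1856.

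*Pde3b*, the insulin-activated phosphodiesterase of fat cells, had 3475 normalized counts in WT and 3065 in Npffr1-KO. This log2 ratio of -0.18 was the lowest of the 9, yet 23.0% of the 15309 genes had a lower one, and it was -0.07 against genes of like length. Its level per kilobase was 23.0 times that of its sister gene *Pde3a*, of heart and vessels, in WT and 31.6 times in Npffr1-KO. *Pde2a*, which cyclic GMP stimulates, stood above *Pde3b* by 2.66 times in WT and 2.30 times in Npffr1-KO.

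*Prkaca*, the main catalytic subunit of protein kinase A, had 4638 normalized counts in WT and 5866 in Npffr1-KO. Its log2 ratio of 0.34 was the second of the 9 after *Adrb1*, and 89.1% of the 15309 genes had a lower one. *Prkacb*, the other catalytic subunit, had a log2 ratio of -0.14, so that *Prkaca* made up 73.5% of the per-kilobase sum of both in WT and 79.5% in Npffr1-KO. *Prkar2b*, the regulatory subunit typical of fat and brain, had 8527 normalized counts in WT and 9305 in Npffr1-KO, a log2 ratio of 0.13. Together with *Prkar1a* it supplied most regulatory subunit RNA. *Prkar2b* made up 49.8% of the per-kilobase sum of the 4 regulatory genes in WT and 52.8% in Npffr1-KO, and *Prkar1a* 44.6% and 42.3%.

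Across the 9 genes the median log2 ratio was 0.02, beside 0.01 over the 15309 genes, and 5 ratios were above 0 and 4 below. Apart from *Adrb1*, the ratios lay between -0.18 and 0.34. Few sequences were shared with other genes: at most 2.97% of the 31-base stretches of a gene's transcripts, in *Prkaca*, occurred in transcripts of another gene. The genes lie on chromosomes 2, 7, 8, 12, 14 and 19 of GRCm38.p6, with *Adrb1* and *Adra2a* both on chromosome 19, *Adrb3* and *Prkaca* both on chromosome 8, and *Adcy3* and *Prkar2b* both on chromosome 12.

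Ratios also moved with gene length over the whole table, from a median of 0.27 among genes of 64 to 837 bases to -0.15 among those of 7431 bases or more. The 9 genes have 1576 to 5314 bases, where the median of genes of like length ran from 0.12 to -0.11. Set against genes of like length, the log2 ratio was 0.96 for *Adrb1*, 0.33 for *Adra1a*, 0.28 for *Prkaca* and 0.15 for *Prkar2b*. It was -0.17 for *Adrb3*, -0.07 for *Adra2a* and 0.01 for *Adcy3*. Thus *Gnas* and *Adcy3*, both near 0, changed sign with this correction, and no other of the 9 did.

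**Figure D3:**
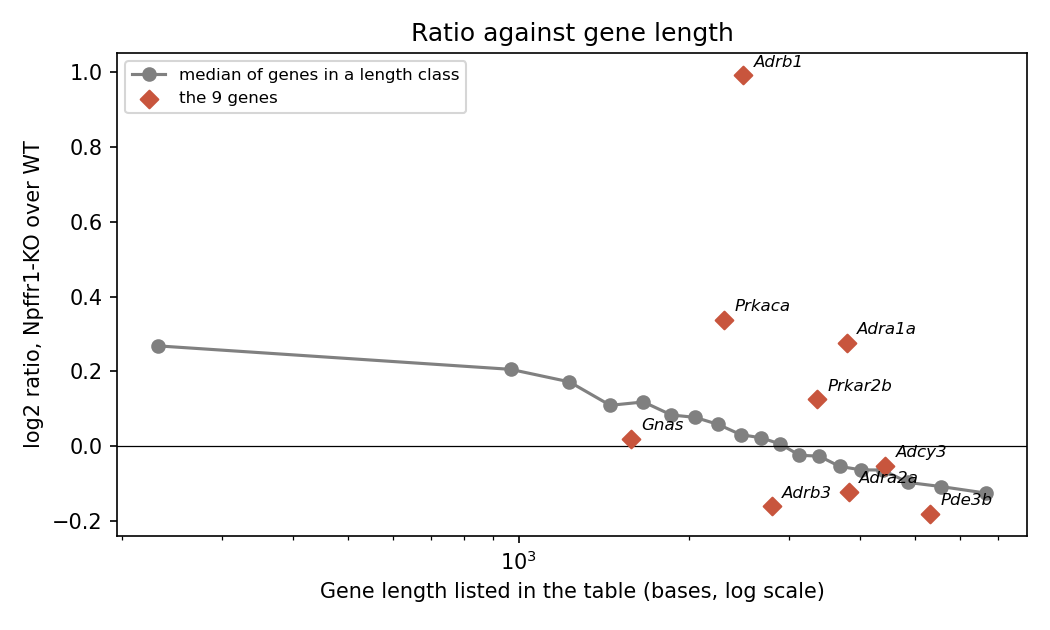
Diamonds show the log2 ratio of the genotype values of the 9 genes against the gene length in bases on a log axis, and the line joins the medians of 19 of 20 length classes of all genes, the longest class being left out. *Adrb1*, at 0.99, lies far above the line, *Prkaca*, *Adra1a* and *Prkar2b* lie above it by less, and *Adrb3* lies below it.

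The other genes of the pathway were described by role from lists of 118 genes, of which 116 were listed and 109 had a mean of at least 10. Their median log2 ratio was -0.12, with 36 ratios above 0 and 73 below, beside 7835 above and 7474 below over all 15309 genes. Set against genes of like length, the median was -0.08, with 39 above 0 and 70 below. Of the 109, 5 were past 0.5 in the higher direction and 13 in the lower direction, beside 4.37% and 4.78% of all genes. These counts rest on 1 value per genotype.

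Other receptors that raise or lower cyclic AMP in fat held 3 of 13 genes past the lower limit and none past the higher one. They were *Hcar2*, a niacin and ketone body receptor that inhibits lipolysis (1126 in WT and 716 in Npffr1-KO), *Npy1r*, an inhibitory neuropeptide Y receptor (292 and 173), and *Mc2r*, the corticotropin receptor, which stimulates lipolysis (1072 and 693). The thyrotropin receptor gene *Tshr*, the highest in the mean of both values, had 2968 and 2619 normalized counts, while the lactate receptor gene *Hcar1* was higher per kilobase, with 919 and 701 against 760 and 671. The 3 lower genes thus included receptors that inhibit the cyclases and 1 that stimulates them. Among 18 G protein subunit genes, only *Gnaz*, of an inhibitory subunit, was past 0.5, with 22, 41 and 28 reads in WT and 25, 16 and 12 in Npffr1-KO, which overlapped. *Gnai2* had a log2 ratio of 0.03.

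Adenylyl cyclases other than *Adcy3* had a median log2 ratio of -0.34 over 7 genes, and 6 of the 7 were below 0. Set against genes of like length, the median was -0.25, again with 6 of the 7 below 0. With this correction *Adcy5* was at -0.62, *Adcy6* at -0.25 and *Adcy1* at -0.83, and the values that follow are without it. *Adcy5*, inhibited by Gi proteins and calcium, had 2011 normalized counts in WT and 1219 in Npffr1-KO, a log2 ratio of -0.72. *Adcy6*, the most abundant, had 6181 and 4778, a log2 ratio of -0.37. *Adcy1*, a calmodulin-stimulated cyclase known from neurons, had 87, 127 and 66 reads in WT and 38, 30 and 57 in Npffr1-KO. Its libraries did not overlap, with a limma difference of -1.08 (SE 0.31), an unadjusted p of 0.0031 and an adjusted p of 0.23. Ratios were also below 0 for 3 of 3 endothelial markers and 3 of 4 fibroblast and progenitor markers, and their part in the cyclase values was not tested.

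Among phosphodiesterases, 12 of 14 had ratios below 0 and 2 were past 0.5: *Pde3a* (120 in WT and 76.8 in Npffr1-KO) and *Pde10a*, at a log2 ratio of -0.50. Set against genes of like length, 10 of the 14 were below 0 and *Pde10a*, at -0.36, was no longer past 0.5. *Pde2a*, the most abundant, had 7095 and 5401, a log2 ratio of -0.39. The other subunits and inhibitors of protein kinase A had log2 ratios between -0.20 and 0.12, with none of 7 past 0.5, and *Prkar1a*, the highest, had 7705 and 7523 normalized counts. Of 11 anchoring proteins, which tether the kinase to places in the cell, *Akap6* alone was past 0.5. It had 66, 81 and 66 reads in WT and 44, 42 and 25 in Npffr1-KO without overlap, and a limma difference of -0.90 (SE 0.31) with an adjusted p of 0.29. *Akap12*, the most abundant, had 6267 and 4646. *Rapgef3*, which encodes Epac1, a cyclic AMP sensor apart from the kinase, had 1422 and 956, a log2 ratio of -0.57.

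No member of the CREB family and its coactivators (9 genes, median -0.17) or of the receptor kinases and arrestins (7 genes, median 0.10) was past 0.5. The most abundant were *Crtc2*, a CREB coactivator, with a log2 ratio of -0.19, and *Grk2*, the kinase that desensitizes beta receptors, listed under its older symbol *Adrbk1*, with 4585 in WT and 5508 in Npffr1-KO. Set against genes of like length, *Grk3*, a sister kinase listed as *Adrbk2*, passed 0.5 with 0.55, and the CREB family median was -0.09.

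Of 10 genes known to be induced by cyclic AMP, 4 were past 0.5 in the higher direction and none in the lower one, with a median of 0.28. Over all 15309 genes, 4.37% were past it in the higher direction and 4.78% in the lower one. These counts, too, rest on 1 value per genotype. *Ucp1*, the uncoupling protein of thermogenic fat cells, had 438 normalized counts in WT and 1287 in Npffr1-KO. *Ppargc1a*, a coactivator of mitochondrial genes, had 136 and 241. *Nr4a1* and *Dusp1*, both rapidly induced by many stimuli, had 884 and 1480, and 2152 and 3538. *Pck1*, the most abundant and an enzyme of glycerol and glucose synthesis, had 31686 and 25654, a log2 ratio of -0.30. *Per1*, a clock gene, had the lowest log2 ratio of the 10, -0.49, and *Nr4a2* was also below 0, at -0.07. *Dio2*, the deiodinase of brown fat, had 51, 11 and 13 reads in WT and 19, 26 and 54 in Npffr1-KO, which overlapped. *Ucp1* and *Ppargc1a* also stand in the thermogenic marker list given above.

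For the noradrenaline supply the table gives little. Of 9 genes for synthesis and clearance, 7 were listed. *Th* and *Dbh*, the enzymes that define noradrenergic nerves, were not listed. *Slc6a2*, the noradrenaline transporter, had 9, 3 and 6 reads in WT and 1, 10 and 10 in Npffr1-KO. *Slc18a2*, the vesicular monoamine transporter, had 164 normalized counts in WT and 109 in Npffr1-KO, a log2 ratio of -0.59. Whether its reads came from nerves or from other cells was not tested. The cell bodies of sympathetic nerves lie outside the depot, and only their axons run through it.

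**Figure D4:**
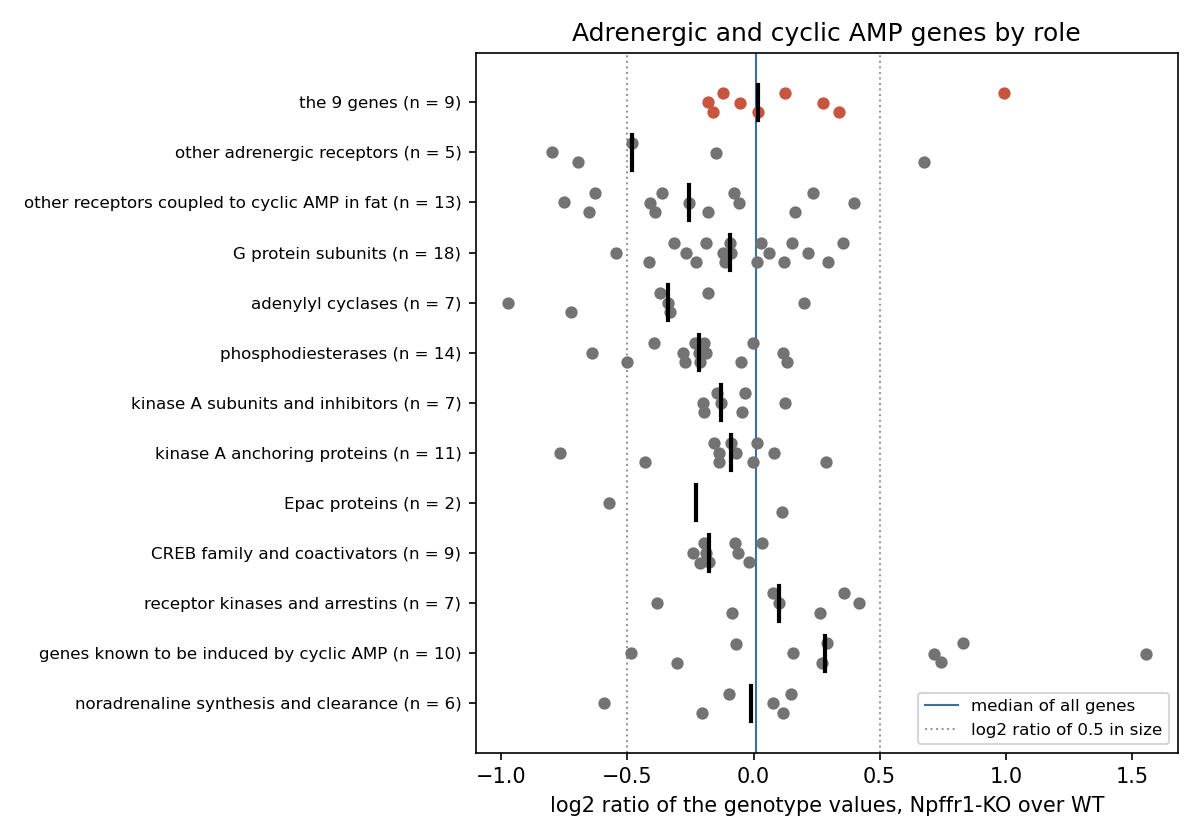
Each point is the log2 ratio of the genotype values of 1 gene with a mean of at least 10, grouped by role with the 9 genes on top, black bars are group medians, the blue line is the median of all genes, and dotted lines mark 0.5 in size. *Adrb1* is the only one of the 9 past a dotted line. The medians of the cyclases (-0.34) and other adrenergic receptors (-0.48) lie left of the blue line. That of genes known to be induced by cyclic AMP (0.28) lies right of it. The ratios shown are not set against genes of like length.

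Reads per library were recovered for 15 genes of the 9 and the pathway lists with a mean of at least 10. *Adrb1* was the only one of the 15 that was higher in Npffr1-KO without overlap, beside 6.14% of the 2849 genes, and *Adra2b*, *Adcy1* and *Akap6* were lower without overlap, beside 10.2%. Of the 15, 5 had an unadjusted p under 0.05 with limma, those 4 and *Adra2c*, beside 324 of the 2849 genes (11.4%), and 0 had an adjusted p under 0.05. Spread between libraries was wider at lower means. For genes with a mean of 50 to 100 the median coefficient of variation was 18.4% in WT and 20.2% in Npffr1-KO. It was 22.8% and 27.5% at means of 25 to 50, and 32.1% and 37.8% at means of 10 to 25.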

How the data were processed

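RNA was extracted with TRIzol from iAT of 3 WT and 3 Npffr1-KO samples, grouped by the genotype label. Per the labels, the authors used Bowtie2, RSEM and DESeq2, in versions not given in the sources used here. The same holds for the genome build, annotation and strand setting. The paper names the deposited data and does not describe this comparison further. The table that the authors deposited gives a signal, the read count normalized by the authors with DESeq2 size factors, as 1 pooled value per genotype, with gene length. Its columns of the authors' own fold changes and p-values, and a shorter table of 90 genes, were not used. The pooled values sum to 23137343 in WT and 23640005 in Npffr1-KO, and the read totals of the libraries are unknown.

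The mean of both values is the mean normalized count over 6 libraries. The mean of a gene with only 1 read in all takes 1 of 6 values. The 585 such genes give the 6 size factors, and the direction of their ratio gives the genotype. For the 7458 genes with both values under 100, combinations of whole reads that match this mean were searched. Reads were found for 7328. The direction from the reads was that of the values for 100% of 5122 genes whose log2 ratio was over 0.1 in size. The search and the test below were first tested on simulated data. There the test missed most of the genes that were given a log2 change of 1. A gene that does not pass the test is therefore not shown to be unchanged. The recovered reads are whole to the precision of the deposited values.

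limma 3.58.1 in R 4.3.3 was run on log2(normalized count + 1) of those 2849 whose mean was 10 or more, a test chosen after the reads were seen. Named genes were the 9, the pathway genes with a mean of at least 10 and a log2 ratio of at least 0.5 in size, and the most abundant gene of each list, with further low genes named for their reads after their values were seen. Some genes that this rule names are not reported here. The genes and lists were chosen with earlier results of these data known. Symbols are those of the table. Promoters are from RefSeq, and overlapping genes and shared 31-base stretches from GENCODE M21.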

Additional observations from a re-analysis of the deposited data

How the results depend on the processing

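No paired analysis was possible because the table holds 1 value per genotype and the recovered libraries carry no sample number. With a limit of 0.3 on the log2 ratio in place of 0.5, 2 of the 9 genes were higher (*Adrb1* and *Prkaca*) and 0 lower. Of the 109 other pathway genes, 9 were higher and 27 lower. Over all 15309 genes, 2104 were higher and 1982 lower at this limit. With a limit of 1, 0 of the 9 genes were past it, and 1 other pathway gene was higher and 0 were lower. Of the 15309 genes, 74 were higher and 48 lower at that limit. The order of levels kept 7 of 9 places in Npffr1-KO and 7 of 9 without division by length. Leaving out each library in turn gave log2 ratios of the means of 0.97 to 1.35 for *Adrb1* and 0.052 to 0.57 for *Adra1a*, the highest without Npffr1-KO library b (0.57) and the lowest without Npffr1-KO library c (0.052). The median of the other adrenergic receptors was 0.10 among those with a mean of at least 50, where only 2 genes remain. The limma difference of *Adra1b* changed sign without Npffr1-KO library a, with an adjusted p of 0.93. Over 9 alternatives the limma adjusted p of *Adrb1* was 0.099 to 0.63, and at most 1 of the genes tested passed in either direction. Those tested were the 2849 low genes with reads found, or 1784 of them with a minimum mean of 25. Centring on the median gene or on genes of like length, pseudocounts and size factors changed no count or call of the 9 genes, although *Gnas* and *Adcy3* changed sign with length. The 7 abundant genes have no error because the table holds 1 value per genotype and reads were searched only where both values were under 100.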
